A study of Danio rerio with 16 samples.

Results

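The expression of 8 zebrafish neutrophil genes was followed through an RNA-seq experiment on *klf9* and chronic cortisol. The genes were *mpx* (ENSDARG00000019521), *lyz* (ENSDARG00000057789), *npsn* (ENSDARG00000010423), *ncf1* (ENSDARG00000033735), *mmp9* (ENSDARG00000042816), *mmp13a* (ENSDARG00000012395), *csf3r* (ENSDARG00000045959) and *lect2l* (ENSDARG00000033227), chosen by name as genes of neutrophil granules, the oxidative burst, matrix breakdown and migration. Earlier results of these data were known when the genes were chosen. The shares of all genes given beside their counts are therefore a description and no independent test. The genes are 8 of the 22994 in the expression table, and all 8 were among the 21490 that were tested because they averaged 5 or more normalized counts. Gene symbols matched 6 of them, while *mpx* and *lect2l* were identified through the study's own list of gene identifiers because the name table calls them EPX and LECT2.

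Each of the 16 samples was a pool of 10 whole larvae at 5 days post fertilization (dpf), with 4 samples in each of 4 groups: *klf9*-/- larvae with cortisol, *klf9*-/- larvae with vehicle, wild-type (WT) larvae with cortisol and WT larvae with vehicle. Cortisol was given at 1 µM in the medium from about 4 h post fertilization, and vehicle-treated larvae received DMSO over the same time. The *klf9*-/- line carries a frameshift deletion of 2 bp in exon 1, made with CRISPR-Cas9 and descended from a single founder female, and both genotypes were raised from related parents of the AB strain with 14 h of light and 10 h of darkness a day. Larvae of a group shared 1 dish, so replicates are samples of that dish and the p-values measure only the spread between them. Replicates 1 and 2 went through RNA preparation on day 1, when 8 frozen samples received buffer before any was homogenized. Replicates 3 and 4 followed on day 2, with each sample homogenized directly after its buffer. These 2 preparation days are the batches of the experiment.

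Neutrophils are the granulocytes that arrive first at wounds and infections. They kill microbes with enzymes stored in granules and with reactive oxygen made by the NADPH oxidase, and they open a path through tissue with secreted metalloproteinases. Cortisol acts through the glucocorticoid and mineralocorticoid receptors. Glucocorticoids are known to raise the number of circulating neutrophils in mammals, and Klf9 is a Krüppel-like transcription factor whose gene the glucocorticoid receptor activates directly. In RNA from whole larvae, more neutrophils and more RNA per neutrophil cannot be told apart.

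The mutated gene was examined first. *klf9* (ENSDARG00000068194) had 106, 134, 136 and 111 normalized counts in *klf9*-/- larvae with cortisol and 135, 78, 100 and 111 in *klf9*-/- larvae with vehicle, against 330, 511, 354 and 340 in WT larvae with cortisol and 274, 250, 243 and 165 in WT larvae with vehicle. Every *klf9*-/- sample lay below every WT sample. The difference between *klf9*-/- and WT was −1.64 ± 0.18 (log2, SE) with cortisol and −1.14 ± 0.18 with vehicle, with adjusted p of 0.000142 and 0.00966. Each p in the text comes from limma, and adjusted p are Benjamini-Hochberg values over all 21490 genes, with 0.05 as the threshold. Values are given as normalized counts, which were quantile normalized so that every sample has the same distribution and the same sum of 14653434. The original depth is therefore unknown.

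Cortisol raised 6 of the 8 neutrophil genes in WT larvae: *mpx*, *lyz*, *ncf1*, *mmp9*, *csf3r* and *lect2l*. The increases ran from 1.96-fold for *lyz* to 2.96-fold for *lect2l*. Of all genes tested, 4.67% were raised in the same comparison. In *klf9*-/- larvae none of the 8 passed the threshold in limma (4 did at an unadjusted p under 0.05), where 2.35% of all genes were raised. An unadjusted p under 0.05, in either direction, was found for 6030 of all 21490 genes in *klf9*-/- larvae and 7084 in WT larvae. The median effect of cortisol over the 8 genes was 0.31 (log2) in *klf9*-/- larvae and 1.22 in WT larvae, beside medians of −0.01 and −0.03 over all genes tested. All 8 estimates were above zero in both genotypes, as were 10555 of all 21490 genes in *klf9*-/- larvae and 9830 in WT larvae.

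**Figure D1:**
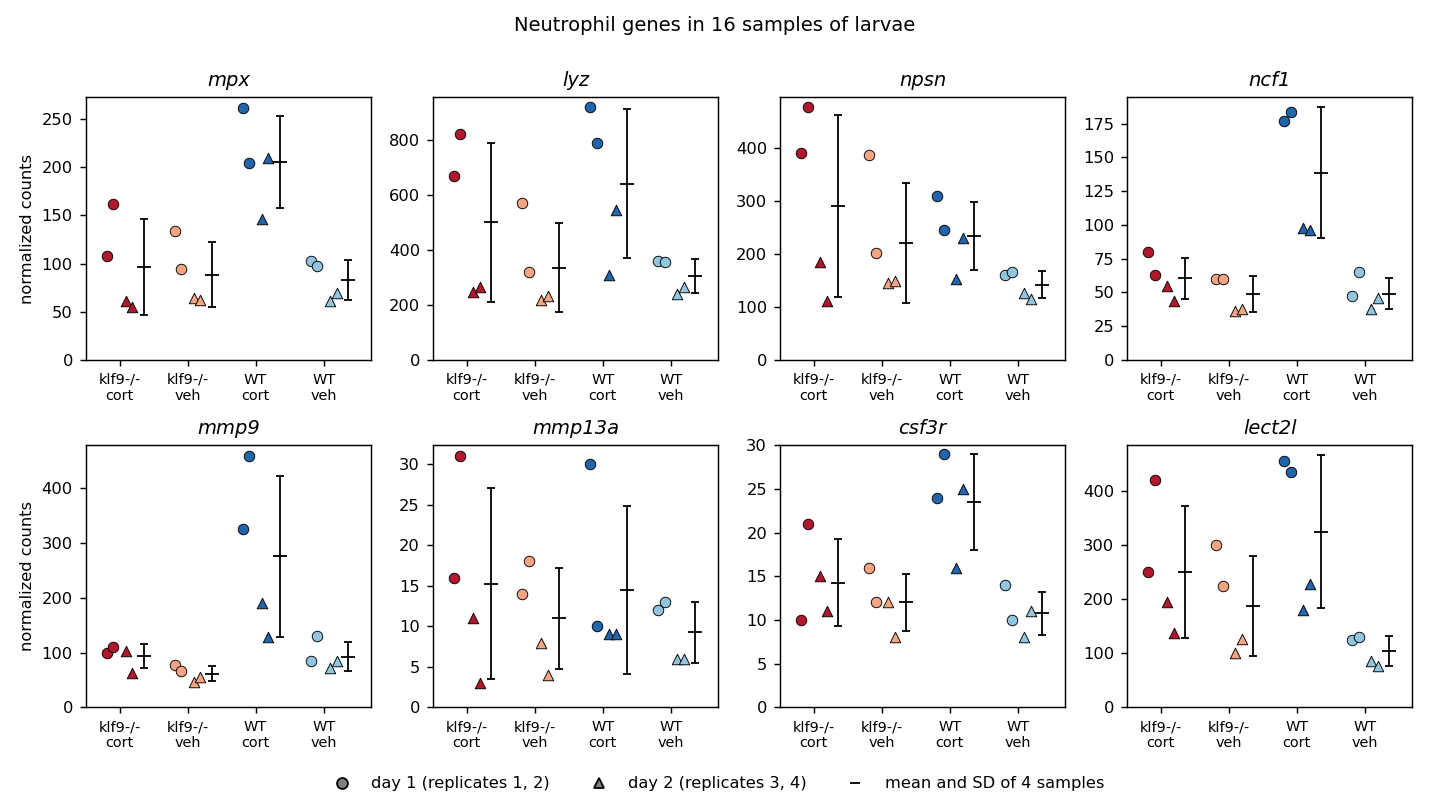
Normalized counts of the 8 neutrophil genes (vertical axes, linear, starting at 0) in each of 16 samples. Groups run from left to right as *klf9*-/- with cortisol (cort), *klf9*-/- with vehicle (veh), WT with cortisol and WT with vehicle, circles are samples prepared on day 1, triangles those of day 2, and bars give the mean and SD of 4 samples. The WT cortisol samples of *mpx*, *ncf1*, *csf3r* and *lect2l* all lie above the WT vehicle samples, and the samples of day 1 are mostly higher than those of day 2.

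The granule genes come first. *mpx* encodes myeloperoxidase, the peroxidase of neutrophil granules that is used as the standard marker of zebrafish neutrophils. It had 108, 162, 61 and 55 normalized counts in replicates 1 to 4 of *klf9*-/- larvae with cortisol and 134, 94, 64 and 62 with vehicle. In WT larvae it had 262, 204, 146 and 210 with cortisol and 103, 98, 61 and 69 with vehicle. In *klf9*-/- larvae the vehicle samples lay within the range of the cortisol samples, whereas the lowest WT cortisol sample exceeded the highest WT vehicle sample. Group means were 96.5 ± 49.7 with cortisol and 88.5 ± 33.7 with vehicle in *klf9*-/- larvae, and 206 ± 47.5 with cortisol and 82.8 ± 20.9 with vehicle in WT larvae (SD, n = 4 each, both days together). The effect of cortisol was 0.06 ± 0.18 in *klf9*-/- larvae (log2, SE, adjusted p = 0.858) and 1.32 ± 0.18 in WT larvae (adjusted p = 0.000566).

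*lyz* encodes lysozyme C, an antibacterial enzyme made by neutrophils and, in zebrafish larvae, also detected in some macrophages. With cortisol, *klf9*-/- larvae had 670, 824, 247 and 266 normalized counts and with vehicle 570, 322, 219 and 234. WT larvae had 920, 792, 308 and 547 with cortisol and 362, 358, 242 and 264 with vehicle. The groups overlapped in both genotypes, since vehicle samples of day 1 reached above cortisol samples of day 2, but within each day every cortisol sample was above every vehicle sample in both genotypes. The effect was 0.49 ± 0.21 (log2, SE) in *klf9*-/- larvae, adjusted p = 0.149, and 0.97 ± 0.21 in WT larvae, adjusted p = 0.0175. The WT call did not hold without WT cortisol replicate 1 (adjusted p = 0.0665) or WT vehicle replicate 1 (adjusted p = 0.0599).

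*npsn*, nephrosin, encodes an astacin-family metalloprotease of fish granulocytes. It had 390, 477, 184 and 112 normalized counts in *klf9*-/- larvae with cortisol and 387, 202, 145 and 148 with vehicle, against 310, 245, 153 and 229 in WT larvae with cortisol and 161, 166, 127 and 114 with vehicle. The highest of its 16 values was in a *klf9*-/- cortisol sample, and all groups overlapped. Neither effect passed the threshold: 0.30 ± 0.25 (log2, SE, adjusted p = 0.440) in *klf9*-/- larvae and 0.70 ± 0.25 (adjusted p = 0.0755) in WT larvae. The WT effect passed without *klf9*-/- cortisol replicate 4 (adjusted p = 0.0495).

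*ncf1* encodes p47phox, the cytosolic subunit that assembles the phagocyte NADPH oxidase. Its values were 80, 63, 55 and 44 normalized counts in *klf9*-/- larvae with cortisol and 60, 60, 36 and 38 with vehicle, against 177, 184, 98 and 96 in WT larvae with cortisol and 47, 65, 38 and 46 with vehicle. Every WT cortisol sample was above all 12 samples of the other groups. Means were 60.5 ± 15.2 with cortisol and 48.5 ± 13.3 with vehicle in *klf9*-/- larvae, and 139 ± 48.3 with cortisol and 49.0 ± 11.4 with vehicle in WT larvae (SD, n = 4 each). The effect of cortisol was 0.33 ± 0.13 (log2, SE, adjusted p = 0.129) in *klf9*-/- larvae and 1.46 ± 0.13 (adjusted p = 1.76e-05) in WT larvae, a 2.75-fold increase.

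*mmp9* encodes gelatinase B, which neutrophils release to degrade basement membrane collagen and which macrophages and epithelia can also make. It had 100, 110, 103 and 62 normalized counts in *klf9*-/- larvae with cortisol and 78, 67, 46 and 55 with vehicle. WT larvae had 325, 458, 191 and 128 with cortisol and 85, 130, 71 and 85 with vehicle. In WT larvae the groups met at their edges, at 128 with cortisol and 130 with vehicle, which were samples of different days, and in *klf9*-/- larvae the lowest cortisol sample, at 62, was below the highest vehicle sample, at 78. The effect was 0.60 ± 0.22 (log2, SE, adjusted p = 0.0986) in *klf9*-/- larvae and 1.44 ± 0.22 (adjusted p = 0.00166) in WT larvae.

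*mmp13a* encodes a collagenase and had few counts: 16, 31, 11 and 3 in *klf9*-/- larvae with cortisol, 14, 18, 8 and 4 with vehicle, 30, 10, 9 and 9 in WT larvae with cortisol, and 12, 13, 6 and 6 with vehicle. All groups overlapped, and the WT cortisol mean of 14.5 ± 10.3 (SD, n = 4) was set by replicate 1. The effects were 0.26 ± 0.41 (log2, SE, adjusted p = 0.715) in *klf9*-/- larvae and 0.52 ± 0.41 (adjusted p = 0.389) in WT larvae. With a 95% interval of −0.63 to 1.14 in *klf9*-/- larvae and −0.36 to 1.41 in WT larvae, a change of the size seen in *mpx* was within the WT interval.

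The remaining genes act in production and migration. *csf3r* encodes the receptor for granulocyte colony-stimulating factor, which drives the production and release of neutrophils. It had 10, 21, 15 and 11 normalized counts in *klf9*-/- larvae with cortisol and 16, 12, 12 and 8 with vehicle, against 24, 29, 16 and 25 in WT larvae with cortisol and 14, 10, 8 and 11 with vehicle. The WT groups did not overlap, and the *klf9*-/- groups did. The effect was 0.23 ± 0.25 (log2, SE, adjusted p = 0.583) in *klf9*-/- larvae and 1.12 ± 0.25 (adjusted p = 0.0202) in WT larvae. The WT call did not hold without WT cortisol replicate 1 (adjusted p = 0.0570) or replicate 2 (adjusted p = 0.0747).

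*lect2l* belongs to the family of leukocyte cell-derived chemotaxin 2, a neutrophil attractant in mammals. It had 250, 421, 195 and 138 normalized counts in *klf9*-/- larvae with cortisol and 300, 224, 101 and 126 with vehicle. WT larvae had 456, 436, 180 and 228 with cortisol and 125, 130, 86 and 76 with vehicle. WT cortisol samples were all above WT vehicle samples, while the vehicle samples of *klf9*-/- larvae reached 300. The effect was 0.43 ± 0.17 (log2, SE, adjusted p = 0.118) in *klf9*-/- larvae and 1.57 ± 0.17 (adjusted p = 8.1e-05) in WT larvae. Another gene of the table, ENSDARG00000090889, carries the same LECT2 symbol, and whether reads were divided between the pair was not examined.

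Counted over the 8 genes, all 4 cortisol samples were above all 4 vehicle samples for none in *klf9*-/- larvae, where 1.28% of all genes had such a separation, and for 4 in WT larvae (*mpx*, *ncf1*, *csf3r* and *lect2l*), where 2.01% did. Within each preparation day taken alone, every cortisol sample exceeded every vehicle sample on both days for 3 genes in *klf9*-/- larvae (*lyz*, *mmp9* and *ncf1*), against 10.9% of all genes, and for 7 in WT larvae (all but *mmp13a*), against 8.27% of all genes. The term for preparation day mattered to the calls. Without it, 1 of the 8 genes (*ncf1*) passed in WT larvae, and the number over all genes, both directions together, was 97 in place of 1860.

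**Figure D2:**
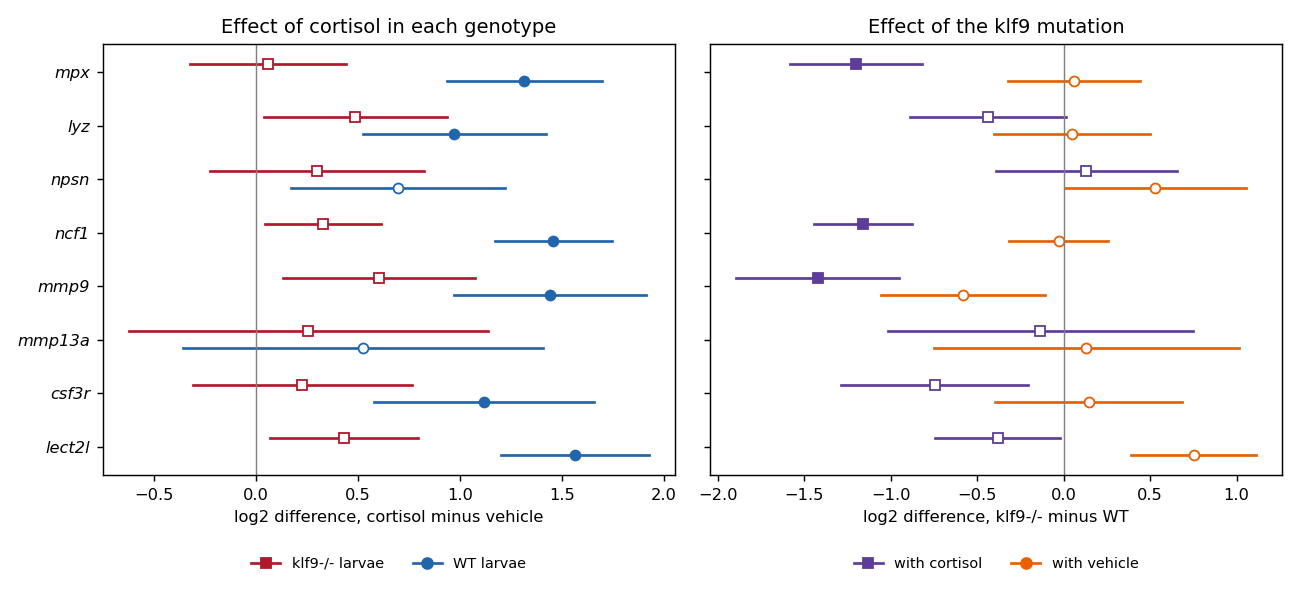
Log2 differences of the 8 neutrophil genes with 95% confidence intervals from the fit over 16 samples. The left panel gives cortisol minus vehicle in *klf9*-/- larvae (squares) and WT larvae (circles), the right panel *klf9*-/- minus WT with cortisol (squares) and with vehicle (circles), and filled symbols have an adjusted p under 0.05. On the left 6 WT symbols and no *klf9*-/- symbol are filled, and on the right *mpx*, *ncf1* and *mmp9* are filled with cortisol and none with vehicle.

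The genotypes were then compared directly. The effect of cortisol in *klf9*-/- larvae minus that in WT larvae was below zero for all 8 genes, with a median of −0.87 (log2), beside a median of 0.01 over all genes. It passed the threshold for 1 of 8, *ncf1*, at −1.13 ± 0.19 (log2, SE, adjusted p = 0.0197), and 5 of 8 had an unadjusted p under 0.05. Only 0.168% of all genes passed the threshold in this direction, and 1231 of 21490 had an unadjusted p under 0.05 in either direction. The difference was −1.26 ± 0.25 for *mpx* (adjusted p = 0.0807) and −1.13 ± 0.24 for *lect2l* (adjusted p = 0.107). For the other 5 genes it ran from −0.89 for *csf3r* to −0.27 for *mmp13a*, and the lowest adjusted p among them was 0.738. The *ncf1* call was lost in 6 of 16 fits that each left out a sample, namely WT cortisol replicate 1 or 2, *klf9*-/- cortisol replicate 2 or 4 and *klf9*-/- vehicle replicate 1 or 2, with an adjusted p of at most 0.0660. That of *mpx* was gained without WT cortisol replicate 2 (adjusted p = 0.0495) or *klf9*-/- cortisol replicate 2 (adjusted p = 0.0137). The *ncf1* call also did not hold with a replicate block in place of preparation day (adjusted p = 0.0533), without preparation day (adjusted p = 1.00) or within either day. For the other 7 genes, a larger effect in WT than in *klf9*-/- larvae was not shown.

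With cortisol, 3 of 8 genes were lower in *klf9*-/- than in WT larvae, against 1.46% of all genes: *mmp9* at −1.42 ± 0.22 (log2, SE, adjusted p = 0.00239), *mpx* at −1.20 ± 0.18 (adjusted p = 0.00171) and *ncf1* at −1.16 ± 0.13 (adjusted p = 0.000199). These 3 calls held in each of the 16 fits that left out a sample. All 4 *klf9*-/- samples lay below all 4 WT samples for *mmp9* (62 to 110 against 128 to 458 normalized counts) and *ncf1* (44 to 80 against 96 to 184), a separation found in 2.46% of all genes. Within each day, it was found on both days for *mpx*, *mmp9*, *ncf1* and *csf3r*, against 7.31% of all genes. The remaining differences were −0.75 for *csf3r* (adjusted p = 0.183), −0.44 for *lyz*, −0.38 for *lect2l*, −0.14 for *mmp13a* and 0.13 for *npsn*, each of the last 4 with an adjusted p of at least 0.364. This comparison and the one in WT larvae share the WT cortisol samples.

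With vehicle, none of the 8 genes differed between the genotypes in limma, while 0.586% of all genes passed. At an unadjusted p under 0.05 there were 3 of the 8 genes and 2755 of all 21490. *lect2l* was the closest, with 101 to 300 normalized counts in *klf9*-/- larvae against 76 to 130 in WT larvae and a difference of 0.75 ± 0.17 (log2, SE, adjusted p = 0.0583). It passed without *klf9*-/- cortisol replicate 2 (adjusted p = 0.0497). *npsn* stood at 0.53 ± 0.25 (adjusted p = 0.385) and *mmp9* at −0.58 ± 0.22 (adjusted p = 0.267). On both days taken alone, each vehicle sample of *klf9*-/- larvae was above each of WT larvae for *lect2l* and *npsn*, against 5.88% of all genes, and below for *mmp9*, against 6.00%. The vehicle levels of *mpx*, *lyz*, *ncf1*, *csf3r* and *mmp13a* differed by −0.03 to 0.14 between the genotypes, with 95% intervals that reached as far as −0.75 and 1.01 for *mmp13a* and −0.31 and 0.26 for *ncf1*.

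The members moved with preparation day as well as with treatment. On day 2, 7 of 8 genes were lower than on day 1, where 32.8% of all genes were lower, with differences from −0.63 for *ncf1* to −1.35 for *mmp13a* (log2). *csf3r* was at −0.35 ± 0.18 (adjusted p = 0.101). In the cortisol samples of WT larvae, *lyz* averaged 428 normalized counts on day 2 and 856 on day 1, and in those of *klf9*-/- larvae 257 on day 2 and 747 on day 1 (n = 2 each). Whether the difference lies in the larvae or in how the RNA was prepared cannot be told apart.

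**Figure D3:**
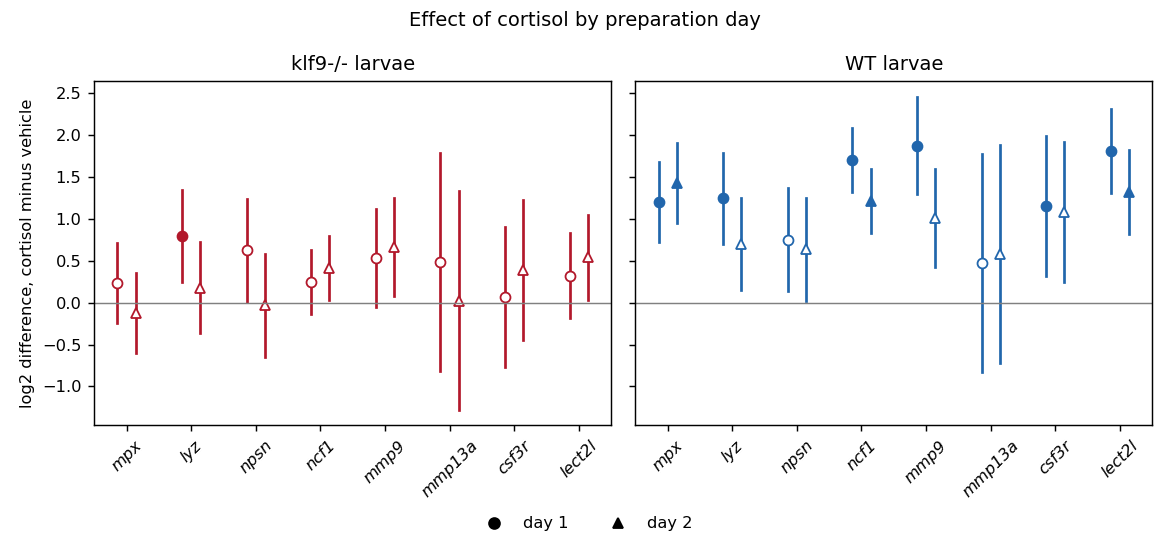
Cortisol minus vehicle on the log2 scale for each neutrophil gene on each preparation day (circles day 1, triangles day 2), with 95% confidence intervals, in *klf9*-/- larvae (left) and WT larvae (right). Filled symbols have an adjusted p under 0.05. In WT larvae all 16 estimates are above zero, with 6 filled on day 1 and 3 on day 2, and in *klf9*-/- larvae only *lyz* on day 1 is filled.

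Split by day, with 2 samples a group, the cortisol effect in WT larvae passed for 6 genes on day 1, against 18.0% of all genes raised, and for 3 genes on day 2, against 1.46%. The 3 genes of day 2 were *mpx* at 1.43 ± 0.22 (log2, SE, adjusted p = 0.00527), *lect2l* at 1.32 ± 0.23 (adjusted p = 0.0109) and *ncf1* at 1.21 ± 0.18 (adjusted p = 0.00329). These 3 were raised on each day. Without WT cortisol replicate 4 the adjusted p of *mpx* on day 2 was 0.0781, and 1 gene passed on that day. On day 1 *mpx* rose 2.30-fold, and the log2 effects were 1.81 for *lect2l*, 1.71 for *ncf1*, 1.88 for *mmp9*, 1.25 for *lyz* and 1.15 for *csf3r*. With 1 sample left out, 5 to 7 genes passed on day 1. The day 1 call of *csf3r* was lost without any of replicates 1 and 2 of WT cortisol or WT vehicle (adjusted p up to 0.141), and the day 2 call of *lect2l* without WT cortisol replicate 3 or 4 or WT vehicle replicate 4 (adjusted p up to 0.133). The day 2 effect of *mmp9* was 1.01 (adjusted p = 0.103).

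In *klf9*-/- larvae only *lyz* passed on day 1, at 0.79 ± 0.25 (log2, SE, adjusted p = 0.0484), and none on day 2 (3 had an unadjusted p under 0.05). Of all genes, 6.86% were raised on day 1 and 0.712% on day 2, and 3906 of 21490 had an unadjusted p under 0.05 on day 2. The *lyz* call was lost in 12 of the 16 fits that left out a sample, including samples of WT larvae and of day 2. On day 2 the estimates of *mpx* and *npsn* in *klf9*-/- larvae were −0.12 and −0.03, and the largest was 0.67 for *mmp9* (adjusted p = 0.220).

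The effect of cortisol differed between days for none of the 8 genes in either genotype in limma, where 0.168% of all genes in *klf9*-/- larvae and 16.2% in WT larvae did. At an unadjusted p under 0.05 there were 0 in *klf9*-/- larvae and 1 in WT larvae, *mmp9*, whose effect was −0.87 ± 0.38 (log2, SE) on day 2 minus day 1. Of all 21490 genes, 3219 in *klf9*-/- larvae and 7085 in WT larvae had such a p. The effect in *klf9*-/- larvae minus that in WT larvae was below zero for 7 of 8 genes on day 1 and for 8 of 8 on day 2, a split chosen after the data were seen. The number of all genes below zero on each day was not counted. The 8 genes share the same samples, so these signs are not independent. None of the 8 passed on either day, against 0.0745% of all genes on day 1 and 0% on day 2. The lowest adjusted p was that of *ncf1* on day 1, at −1.46 ± 0.25 (log2, SE, adjusted p = 0.0563), and that of *mpx* on day 2, at −1.55 ± 0.31 (adjusted p = 0.249). *ncf1* on day 2 was at −0.80 ± 0.25 (adjusted p = 0.807). With cortisol, *klf9*-/- larvae were below WT larvae for *mmp9* (−1.88) and *ncf1* (−1.35) on day 1, against 1.57% of all genes, and for *mpx* (−1.59) and *ncf1* (−0.98) on day 2, against 0.382%.

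NADPH oxidase genes, both of the phagocyte oxidase of *ncf1* and of related oxidases, were followed in a list of 13 genes of which 11 were tested. Cortisol raised 1 of 11 in *klf9*-/- larvae and 8 of 11 in WT larvae, with median effects of 0.33 and 0.59 (log2). Over all genes, 2.35% were raised in *klf9*-/- larvae and 4.67% in WT larvae. With 1 sample left out, 0 to 2 passed in *klf9*-/- larvae and 4 to 8 in WT larvae, the lowest WT count coming without replicate 1 of WT cortisol or of WT vehicle. *cybb*, the catalytic gp91phox subunit, had 38 to 69 normalized counts in *klf9*-/- larvae with cortisol and 36 to 58 with vehicle, against 140 to 192 in WT larvae with cortisol and 43 to 63 with vehicle. The effect on *cybb* was 0.26 in *klf9*-/- larvae (adjusted p = 0.240) and 1.69 in WT larvae (adjusted p = 9.2e-06), and the difference between genotypes of −1.43 passed (adjusted p = 0.00469). *cyba*, its p22phox partner, rose in both genotypes, by 0.52 in *klf9*-/- larvae (adjusted p = 0.0367) and 0.92 in WT larvae (adjusted p = 0.000505). *noxo1a* and *nox1*, an organizer and a catalytic subunit of the related oxidase of epithelia, rose by 1.40 and 0.71 in WT larvae. In *klf9*-/- larvae they were at 0.10 and 0.31. Their differences between genotypes of −1.30 and −0.40 did not pass (adjusted p = 0.272 and 0.952).

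Among 16 tested genes of a list of other neutrophil genes, none was raised in *klf9*-/- larvae (3 had an unadjusted p under 0.05) and 5 were in WT larvae, with medians of 0.15 and 0.54. Of all genes, 2.35% were raised in *klf9*-/- larvae and 4.67% in WT larvae, and 6030 and 7084 of 21490 had an unadjusted p under 0.05. Leaving out 1 sample gave 0 to 2 called genes of the 16 in *klf9*-/- larvae and 4 to 6 in WT larvae. The test of the difference between genotypes passed for none of the 16, against 0.168% of all genes. The second gene with the LECT2 symbol, ENSDARG00000090889, had 2 to 19 normalized counts in *klf9*-/- larvae with cortisol and 5 to 11 with vehicle, against 36 to 124 in WT larvae with cortisol and 3 to 8 with vehicle. Its effect was 0.11 in *klf9*-/- larvae (adjusted p = 0.912) and 3.6 in WT larvae (adjusted p = 0.00101), a 12.2-fold increase beside the 2.96-fold of *lect2l*. The other 4 raised in WT larvae were *hck* (0.91) and *lyn* (0.63), kinases of the Src family in myeloid cells, *itgb2* (0.86), the beta chain of leukocyte integrins, and *srgn* (0.81), the proteoglycan that packs granule proteins. None of the 5 tested genes of a chemokine and receptor list was raised in either genotype. At an unadjusted p under 0.05 there were 1 in *klf9*-/- larvae and 3 in WT larvae. Those tested were *cxcl8a*, *cxcl18b*, *cxcl12b*, *lta4h* and *fpr1*, the only receptor gene among them. The receptor genes *cxcr1*, *cxcr2*, *cxcr4a* and *cxcr4b* had no match in the name table, and *c5ar1* averaged fewer than 5 normalized counts. Leaving out 1 sample gave 0 called genes of the 5 in *klf9*-/- larvae and 0 to 1 in WT larvae. *cxcl18b*, a neutrophil chemokine of fish, was at 0.36 in *klf9*-/- larvae and 1.39 in WT larvae (adjusted p = 0.609 and 0.0531). By day, *cxcl18b* rose in WT larvae on day 1 (2.45, adjusted p = 0.00241) and was at 0.34 on day 2. *lta4h*, whose enzyme makes the neutrophil attractant leukotriene B4, rose on day 2 by 0.38 in *klf9*-/- larvae (adjusted p = 0.0487) and 0.41 in WT larvae (adjusted p = 0.0201). On day 1 *lta4h* was at 0.08 in *klf9*-/- larvae (adjusted p = 0.516) and 0.03 in WT larvae (adjusted p = 0.801). Over both days it did not pass, at 0.23 in *klf9*-/- larvae (adjusted p = 0.1226) and 0.22 in WT larvae (adjusted p = 0.1175). *cxcl8a*, the gene of the neutrophil attractant interleukin 8, was at −0.11 in *klf9*-/- larvae and 0.74 in WT larvae (adjusted p = 0.0854 in WT larvae).

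Metalloproteinases other than *mmp9* and *mmp13a* were mostly not called. The inhibitors on this list had no match in the name table, so no inhibitor was tested. Of 7 tested, none passed in *klf9*-/- larvae (3 at an unadjusted p under 0.05, against 6030 of all 21490 genes) and 1 was raised in WT larvae. Over all genes, 2.35% were raised in *klf9*-/- larvae and 4.67% in WT larvae. The list medians were 0.19 in *klf9*-/- larvae and 0.15 in WT larvae. Leaving out 1 sample gave 0 to 2 called genes of the 7 in *klf9*-/- larvae and 0 to 1 in WT larvae. The raised gene, *mmp30*, was at 0.44 in *klf9*-/- larvae (adjusted p = 0.0536) and 0.55 in WT larvae (adjusted p = 0.0210). Its difference between genotypes was −0.11 (adjusted p = 0.988). A list of 12 granulocyte transcription factors also held genes that are not specific to that lineage. Of the 12, 1 rose in *klf9*-/- larvae, *cebpa* by 0.43 (adjusted p = 0.0318), and 4 in WT larvae. With 1 sample left out, 0 to 2 passed in *klf9*-/- larvae, with 0 when any of replicates 1 to 3 of *klf9*-/- cortisol or vehicle was missing, and 3 to 5 in WT larvae. The 4 WT genes were *irf8* (1.41), which in zebrafish steers myeloid precursors to macrophages at the cost of neutrophils, *spi1a* (1.14), one of the PU.1 genes of myeloid cells, *cebpb* (0.66) and *cebpd* (0.36). None of the 12 passed the test of the difference between genotypes, against 0.168% of all genes.

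**Figure D4:**
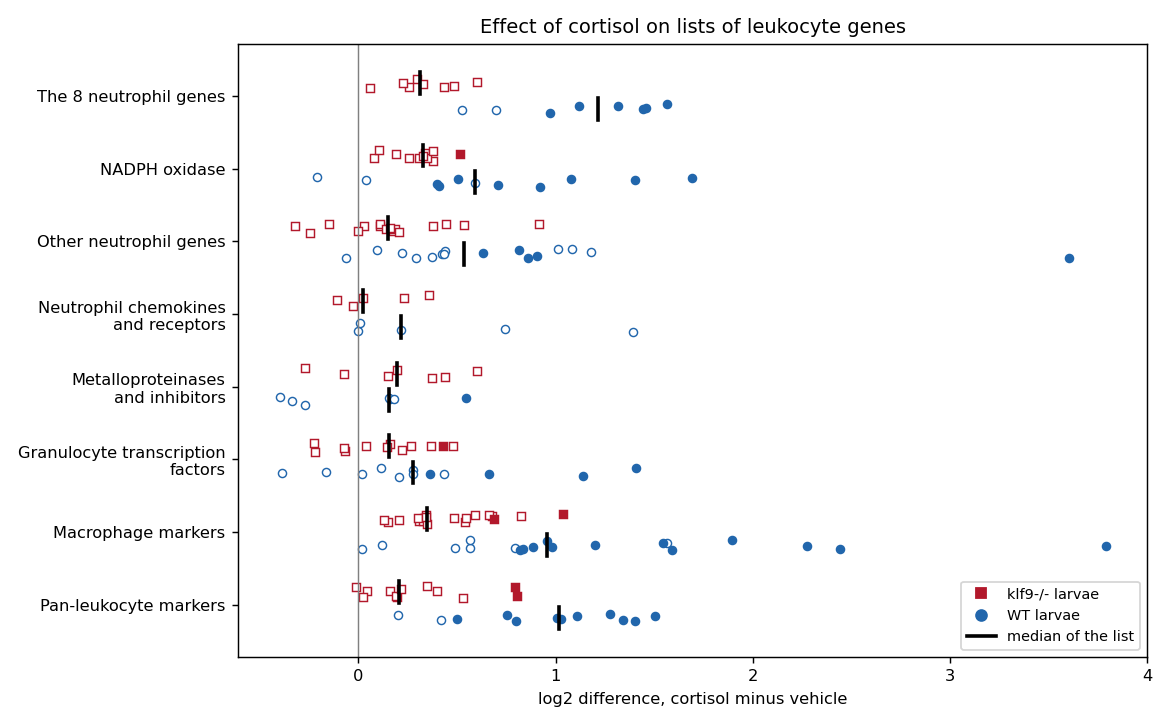
Effect of cortisol (log2 difference, cortisol minus vehicle) on each tested gene of 8 lists, in *klf9*-/- larvae (squares, upper row of each list) and WT larvae (circles, lower row). Filled symbols have an adjusted p under 0.05 and vertical bars are medians. The medians of the neutrophil genes, macrophage markers and pan-leukocyte markers lie at 0.31, 0.35 and 0.21 in *klf9*-/- larvae and at 1.22, 0.96 and 1.02 in WT larvae.

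Markers of other blood cells were measured beside these genes. Of 19 macrophage markers tested, 2 were raised in *klf9*-/- larvae and 12 in WT larvae, beside 2.35% and 4.67% of all genes. Their median effects were 0.35 and 0.96. With 1 sample left out, 0 to 5 passed in *klf9*-/- larvae and 7 to 13 in WT larvae, with 7 reached without WT cortisol replicate 1 and 5 without WT vehicle replicate 1. The 22 genes found for this list, tested or not, summed to 1999 to 2781 normalized counts in *klf9*-/- larvae with cortisol and 1393 to 2294 with vehicle. In WT larvae they summed to 3042 to 5378 with cortisol and 1905 to 3152 with vehicle. The 8 neutrophil genes summed to 691 to 2109 in *klf9*-/- larvae with cortisol and 631 to 1559 with vehicle, against 1101 to 2504 in WT larvae with cortisol and 639 to 970 with vehicle. No marker of either list was at 0 throughout. The macrophage genes of largest effect in WT larvae were *acod1* (3.79), 2 of the 5 tested genes called *mfap4* (2.44 and 2.27), *marco* (1.89) and *mpeg1* (ENSDARG00000043093, 1.59). Of these, *acod1*, both *mfap4* genes and *marco* had a smaller effect in *klf9*-/- larvae by the test of the difference (adjusted p of 0.00315, 0.00302, 0.0431 and 0.00531). Those raised in *klf9*-/- larvae were another *mfap4* gene (ENSDARG00000038683, 1.04) and *csf1ra* (0.69). Several *mfap4* genes share a name, and how reads were split among them was not examined.

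Of 12 pan-leukocyte markers, 2 rose in *klf9*-/- larvae and 10 in WT larvae, beside 2.35% and 4.67% of all genes. Their median effects were 0.21 and 1.02. With 1 sample left out, the counts were 0 to 3 in *klf9*-/- larvae, where each of *klf9*-/- cortisol or vehicle replicates 1 and 3 and vehicle replicate 2 brought the count to 0, and 8 to 10 in WT larvae. *laptm5* rose by 0.79 in *klf9*-/- larvae and 1.50 in WT larvae, and *coro1a* by 0.81 in *klf9*-/- larvae and 1.28 in WT larvae. *fcer1gl*, *plek* and *fcer1g* were at 0.40, 0.22 and 0.19 in *klf9*-/- larvae, below the threshold, and rose by 1.40, 1.34 and 1.11 in WT larvae. The test of the difference between genotypes passed for none of the 12, against 0.168% of all genes. Of 8 lymphocyte and thymus markers none was raised in either genotype. *tox* fell by 0.55 in WT larvae (adjusted p = 0.0419) and was at −0.51 in *klf9*-/- larvae (adjusted p = 0.0598). Its difference between genotypes was 0.04 (adjusted p = 0.998). Of all 21490 genes, 857 were lowered in WT larvae, and 3 of the 8 WT estimates of this list were above zero. Leaving out 1 sample gave 0 to 1 called genes of the list in each genotype. *tox* averaged 860 normalized counts, and the other 7 genes 5.19 to 61.7. The part of lymphocytes in the level of *tox* was not tested. Of 5 erythrocyte markers none passed in either genotype (0 in *klf9*-/- larvae and 1 in WT larvae at an unadjusted p under 0.05). Over all 21490 genes, 6030 in *klf9*-/- larvae and 7084 in WT larvae had such a p. The erythrocyte marker with such a p was *gata1a*, whose WT estimate was below zero, at −0.36 (log2). On day 1 alone, however, 3 of the 5 rose in WT larvae, against 18.0% of all genes raised. They were the globin genes *hbae3* (1.00, adjusted p = 0.0201) and *hbae1.1* (0.91, adjusted p = 0.0117) and *alas2* (0.45, adjusted p = 0.0396), the first enzyme of haem synthesis in red cells. On day 2 they were at −0.02, −0.29 and 0.0052. The remaining erythrocyte markers, *gata1a* and *epb41b*, were at −0.45 and −0.07 in WT larvae on day 1 (adjusted p = 0.111 and 0.715). Neutrophil genes moved together with macrophage and pan-leukocyte genes, and the part of those cells in the levels of genes that they share with neutrophils, such as *ncf1*, *lyz* and *mmp9*, was not tested.

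After each gene was centred within day, the 28 pairs among the 8 genes correlated over 16 samples with Pearson's r of 0.15 to 0.94 and a median of 0.71, given as a description since the samples share groups. The closest pair was *mmp9* and *ncf1* (0.94), followed by *mpx* with *ncf1* and with *csf3r* (0.85 each). *npsn* and *mmp9* were the least alike (0.15), and *mmp13a* had an r below 0.5 with 6 of the other 7 genes. Across the table, the 10 genes whose values were most like the mean of the 8 genes had an r of 0.91 to 0.95 over 16 samples. They were *lgals9l1*, *tapbp.1*, si:dkey-201i2.4, *mfap4* (ENSDARG00000088745), *marco*, *spi1a*, si:ch211-210p4.6, *tppp*, ENSDARG00000113076 and *gbp1*. All 10 rose with cortisol in WT larvae, by 1.14 for *spi1a* to 2.27 for *mfap4*, and in *klf9*-/- larvae si:ch211-210p4.6 rose (0.60, adjusted p = 0.0418) and the other 9 did not pass. They were chosen for this likeness, so the counts add no support to the pattern.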

How the data were processed

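Single-end reads of polyA RNA from 16 samples were trimmed by the authors with Trimmomatic 0.38, aligned with STAR 2.6.1b to GRCz11 and counted per gene with RSEM 1.3.0. The authors normalized the counts with EDASeq (GC content within each sample, full quantile between samples), added 0.1 and deposited the log2 values. On the count scale these were checked to be whole numbers (largest distance 1.8e-09) with the same sorted values in all 16 samples. Quantile normalization forces all samples to one distribution, so a shift shared by most genes cannot be seen. The depth is unknown and errors come from replicates alone. No column of another sample was left aside.

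Here the 21490 genes averaging 5 or more normalized counts were fitted with limma 3.58.1 in R 4.3.3, with a mean per group, preparation day as covariate and eBayes with a trend, for Benjamini-Hochberg adjusted p under 0.05. By-day effects used a mean for each group and day. Differences are on the log2(value + 0.1) scale. The fitting code was tested on simulated data. The authors' tests used DESeq2 on counts, and limma took its place because the values are normalized. Replicate numbers were checked for pairing: deviations from group means correlated between same-numbered samples (median r 0.46, 24 pairs), whereas those from means of group and day did not (median r 0.00), so no pairing was fitted. Alternatives were other filters, pseudocounts, scalings and models, and each sample left out.

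The 8 genes and all lists were chosen with earlier results of these data known. Named from the lists are genes past the threshold, at most the 5 largest per list and comparison, and the 10 genes most like the mean of the 8. *cxcl18b*, *cxcl8a* and the values given for other genes that did not pass were chosen after their values were seen. List symbols matched the name table for 8 of 16 chemokine and receptor genes, 8 of 23 metalloproteinases and inhibitors, 17 of 26 other neutrophil genes and 16 of 24 macrophage markers, among others, and genes with no match were not analysed here. Figures were drawn with Python 3.11.15 and matplotlib 3.10.9.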

Additional observations from a re-analysis of the deposited data

Results flagged for a closer look

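*mmp13a* in WT cortisol replicate 1 had 30 normalized counts, against 9 to 10 in the other 3 samples of its group. Its gap to the nearest sample was 0.952 of the range of the group, above Dixon's 95% critical value for 4 samples. It was the only such sample among the 32 combinations of gene and group checked. Chance gives about 1 in 20 when all 4 samples come from the same distribution, whereas each group here held both preparation days. A gap between the days can hide a deviating sample, so the lack of others says little. For *ncf1*, the effect of cortisol differed between the genotypes, at −1.13 on the log2 scale (effect in *klf9*-/- larvae minus effect in WT larvae, limma adjusted p = 0.0197). This call was lost in 6 of 16 fits that each left out a sample and with a replicate block in place of preparation day (adjusted p = 0.0533).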

How the results depend on the processing

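In WT larvae 6 of the 8 genes passed with cortisol, and 4 to 7 did with 1 sample left out, 4 of the 5 genes that average 75 or more counts, 7 with a separate mean for each group and day, 4 with only the 8 samples compared and 1 without preparation day. Without preparation day the interaction and *klf9*-/- against WT with cortisol gave 0 genes. With the replicate block in place of day, 6 genes passed in WT larvae, 0 in *klf9*-/- larvae and 3 between genotypes with cortisol, as with day, but the interaction gave 0 (*ncf1* adjusted p = 0.0533). The interaction also gave 0 with a mean of at least 75, where *ncf1* was not tested, 0 within day 1, 0 within day 2, 2 with separate means (*ncf1* and *mpx*) and 0 to 1 with 1 sample left out. In *klf9*-/- larvae the cortisol count was 1 (*mmp9*) with separate means and 1 with only the 8 samples, and 0 with any sample left out. *klf9*-/- against WT with vehicle gave 1 (*lect2l*) with separate means and 0 to 1 with 1 sample left out. On day 1 the *klf9*-/- count was 0 without a trend in eBayes, 0 with only the 8 samples of that day and 0 to 1 with 1 sample left out. The WT count on day 2 was 1 to 3, and the number of genes whose WT effect differed between days 0 to 2, with 1 sample left out. Why these counts changed was not tested beyond what each setting leaves out.

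Estimates that changed sign had all missed the threshold. With 10 counts added, *mmp13a* in *klf9*-/- against WT with cortisol was 0.0028. Within day 1, *mmp13a* was 0.016 in the interaction and 0.36 in *klf9*-/- against WT with cortisol, and *ncf1* 0.12 with vehicle. Within day 2, *klf9*-/- against WT was −0.042 for *mpx*, −0.16 for *lyz* and −0.082 for *mmp13a* with vehicle and −0.38 for *npsn* with cortisol. With 1 sample left out, the ranges that crossed zero were, for cortisol in *klf9*-/- larvae, −0.13 to 0.16 for *mpx* and −0.023 to 0.70 for *mmp13a*, on day 1 −0.055 to 0.53 for *mpx*, −0.47 to 0.60 for *csf3r* and −0.052 to 0.70 for *lect2l*, and on day 2 −0.39 to 0.33 for *npsn* and −0.89 to 0.95 for *mmp13a*. For cortisol in WT larvae on day 1, *mmp13a* ran from −0.32 to 1.26, and its interaction from −0.63 to 0.17. For *klf9*-/- against WT they were −0.047 to 0.14 for *mpx*, −0.088 to 0.21 for *lyz*, −0.025 to 0.33 for *mmp13a* and −0.16 to 0.062 for *ncf1* with vehicle, and −0.050 to 0.39 for *npsn* and −0.50 to 0.30 for *mmp13a* with cortisol. Of the values for single genes under the alternatives, 1792 kept direction and side of the threshold, 49 lost the call, 18 gained it and 31 changed sign. The tally includes centring on medians, which could change nothing. It also includes fits without a sample from outside the comparison, where the estimate stayed the same. The 1792 are therefore no measure of stability. Over all genes, the count with cortisol was 0 to 2850 in *klf9*-/- larvae and 340 to 3621 in WT larvae with 1 sample left out, against 1043 and 1860 with all samples. Centring on medians changed nothing, since all samples share 1 median. Raw counts and depth were not used here, so counting error for the low genes *mmp13a* and *csf3r* is not known.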
